A study of Mus musculus with 3 samples.

Results

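Transcripts of 7 regulators of the primitive endoderm were followed in single cells of mouse blastocysts: the transcription factors Gata6, Gata4, Sox17, Sox7 and Foxa2, the receptor Pdgfra and the membrane-bound transcription factor Creb3l2. They were chosen by name out of 23154 gene symbols, and all 7 are listed in every library. The cells came from embryos of the Klf2-H2Bmcherry mouse line, in which the flow-responsive gene Klf2 carries a red nuclear reporter. Embryos were taken at embryonic day 2.5, cultured with and without shaking, and dissociated at the blastocyst stage, embryonic day 3.5. Single cells of mCherry-positive embryos were picked by hand into 3 libraries of 96 barcodes, called replicates 1 to 3, and only the 3' ends of transcripts were sequenced. All 3 libraries carry the same label, with no culture condition or mCherry value for any cell, so they form 1 group and the contrasts below are between classes of cells within the libraries. Separate cultures or animals behind the libraries are not stated in the labels, so the p-values describe the scatter of these libraries alone, which may be technical.

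The inner cell mass (ICM) of the blastocyst gives rise to the epiblast and to the primitive endoderm, the layer that later faces the cavity and lines the yolk sac. In the mouse, ICM cells first express Gata6 together with Nanog, the epiblast factor, and FGF4 signalling through ERK then tips each cell towards either fate. Cells on the endoderm path are known to switch on Pdgfra and then, in sequence, Sox17, Gata4 and Sox7, while Gata6 is also present in the early trophectoderm (TE), the outer epithelium.

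Barcodes with 2000 or more detected genes were taken as cells, which left 225 of 288, with 83, 64 and 78 in replicates 1 to 3. Library totals were between 27610866 and 54444536 counts, and cells held between 7098 and 2705412. Clustering on TE and ICM marker genes, from which the 7 regulators, Nanog and other endoderm genes were kept out, gave 97 ICM-like cells led by Spic, Tdgf1 and Tdh, 101 TE-like cells led by Dppa1, Id2 and Gata3, and 27 cells that stayed unnamed. Of the unnamed cells 17 were in replicate 1, and all 17 had barcode numbers between 33 and 64, a set in which that library held 29 cells. The meaning of the barcode numbers is not given, and results that move with them are marked. All 96 barcode numbers occur in each library and 46 were kept as cells in all 3. Hand1, listed here as a TE marker, was higher in ICM-like cells, by 5.36 on the log2 scale (adjusted p = 0.00519, edgeR's quasi-likelihood test). It was among the genes used in the clustering, so this p-value is not an independent test. Markers of other cells that could have been picked up were near the floor in both classes: the summed level of 8 cumulus and granulosa genes was at most 6.33 CPM (a count scaled to the library's total), that of 5 oviduct genes at most 12.4 CPM and that of 7 blood genes at most 11.7 CPM in any library, and the haemoglobin genes, Inha and Foxl2 were at 0.

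Promoter sequence was matched for 3 of the 7, Pdgfra, Creb3l2 and Foxa2, in RefSeq's table for GRCm38.p6. The windows of Pdgfra and Creb3l2 are shown because, of the 6 pairs among Gata6, Pdgfra, Gata4 and Creb3l2, these had the highest mean Spearman's rho across ICM-like cells at full depth (0.20, a weak value). On thinned counts the mean rho was 0.20 again for this pair and 0.24 for Gata6 and Gata4. Each runs from 250 bases before to 50 bases after the annotated start, 5′ to 3′ along the gene, with the matches to TGACG, the half-site of cAMP response elements, in capitals on whichever strand they lie.
Pdgfra, chr5:75152001-75152300, plus strand: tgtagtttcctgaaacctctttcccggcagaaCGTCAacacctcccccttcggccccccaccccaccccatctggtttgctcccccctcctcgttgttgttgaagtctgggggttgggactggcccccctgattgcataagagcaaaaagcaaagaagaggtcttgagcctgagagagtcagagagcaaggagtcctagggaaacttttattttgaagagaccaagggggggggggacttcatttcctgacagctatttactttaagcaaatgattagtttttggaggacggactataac
Creb3l2, chr6:37442099-37442398, minus strand: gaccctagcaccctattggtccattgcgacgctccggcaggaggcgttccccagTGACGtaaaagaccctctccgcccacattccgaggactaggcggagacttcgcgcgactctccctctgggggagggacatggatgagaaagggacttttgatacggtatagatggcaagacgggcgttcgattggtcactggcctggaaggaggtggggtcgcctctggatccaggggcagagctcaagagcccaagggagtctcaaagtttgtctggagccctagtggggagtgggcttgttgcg
The half-site begins 218 bases before the start of Pdgfra and 196 bases before that of Creb3l2. It was searched on both strands and is held by 20.8% of all 32851 promoters in the table. Neither window holds a GATA motif, spelled AGATAA, with its last base changed AGATAG, with its first base changed TGATAA or with both of these changed TGATAG, and found in 29.8% of promoters, or the SOX core ACAAT, found in 31.0%. These motifs share no letters at the matches shown, and a match describes the letters only.

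The regulators were detected in a graded order, with Gata6 in most cells of both named classes and Foxa2 in none of either. Because cells differed in depth, each was thinned to 50000 counts, which kept 91 ICM-like and 92 TE-like cells and dropped 6 and 9 shallower ones. The median totals before thinning were 373008 counts in ICM-like and 418192 in TE-like cells. Gata6, the GATA factor at the top of the endoderm programme, had a count in 75.8%, 92.0% and 97.0% of ICM-like cells of replicates 1, 2 and 3, against 96.2%, 93.3% and 94.4% of TE-like cells. The classes overlapped and the lowest share was that of ICM-like cells in replicate 1. No class of these cells is known to lack Gata6, so there is no background share for it.

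Pdgfra, the receptor for platelet-derived growth factor that marks endoderm precursors, had a count in 60.6% (exact binomial 95% interval 42.1 to 77.1), 52.0% (31.3 to 72.2) and 33.3% (17.96 to 51.8) of ICM-like cells. In TE-like cells, which should lack it, the shares were 7.69%, 3.33% and 0 of 36 cells, which allows up to 8.33%. Every library had the higher share in ICM-like cells, and the shares of the classes did not overlap. These intervals and limits cover counting error only.

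Creb3l2, a factor held in the endoplasmic reticulum that drives secretory genes when released, had a count in 18.2%, 40.0% and 39.4% of ICM-like cells and in 19.2%, 13.3% and 11.1% of TE-like cells. Replicate 1 showed no excess in ICM-like cells, while replicates 2 and 3 did. Gata4, the GATA factor of the differentiating endoderm, had a count in 15.2%, 4% and 6.06% of ICM-like cells and in 7.69%, 6.67% and 2.78% of TE-like cells. Its share in ICM-like cells lay above the TE-like share in replicates 1 and 3 and below it in replicate 2, so at this depth it could not be told from background.

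Sox17, the SOX factor that follows Pdgfra in the mouse endoderm, was counted in 4 of 91 thinned ICM-like cells, with 3 in replicate 1 and 1 in replicate 3, and in 0 of 92 TE-like cells, which allows up to 3.26%. Sox7, a related and later factor, was counted in 1 of 91 ICM-like cells and 0 of 92 TE-like cells. Foxa2, a forkhead factor of later endoderm, was counted in 0 of 91 ICM-like cells, which allows up to 3.30%, and in 0 of 92 TE-like cells.

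**Figure D1:**
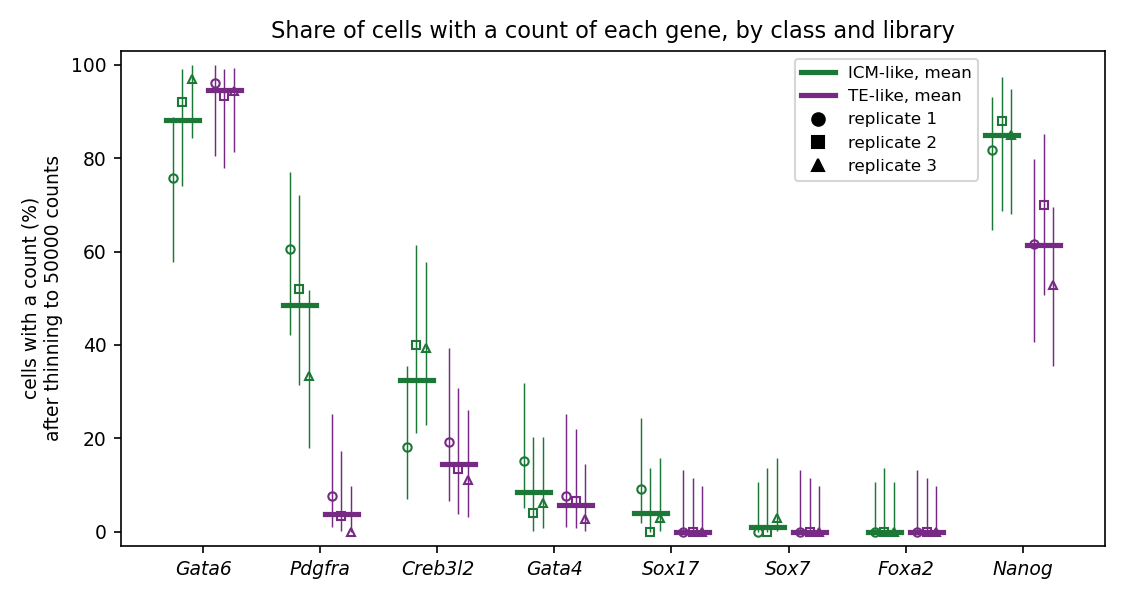
Share of cells (%) with a count of each regulator and of Nanog after thinning to 50000 counts, for ICM-like cells (green, left) and TE-like cells (purple, right). Points are libraries with exact binomial 95% intervals and bars are means of 3 libraries. Gata6 is near the top in both classes, and Pdgfra is the regulator whose ICM-like libraries (33.3% to 60.6%) all lie above its TE-like libraries (0 to 7.69%).

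Averaged over the libraries, the order in ICM-like cells was Gata6 at 88.2% ± 11.1 (SD, n = 3), Pdgfra at 48.6% ± 13.9, Creb3l2 at 32.5% ± 12.4, Gata4 at 8.40% ± 5.93, Sox17 at 4.04% ± 4.63, Sox7 at 1.01% ± 1.75 and Foxa2 at 0%. In TE-like cells the averages were 94.6% ± 1.42 for Gata6, 3.68% ± 3.86 for Pdgfra, 14.6% ± 4.20 for Creb3l2 and 5.71% ± 2.59 for Gata4. Gata6 stood above Pdgfra in every library and Creb3l2 above Gata4 in every library. Pdgfra and Creb3l2 changed places in replicate 3, and Gata4, Sox17 and Sox7 lay within each other's spread. Nanog, for comparison, had a count in 84.9% ± 3.09 of ICM-like and 61.4% ± 8.61 of TE-like cells.

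Without thinning Gata6 was counted in 92 of 97 ICM-like and 95 of 101 TE-like cells, Pdgfra in 59 and 14, Creb3l2 in 58 and 31, and Gata4 in 31 and 23. A single count was all that 17 of those 31 ICM-like and 15 of those 23 TE-like cells had of Gata4. At full depth Creb3l2 was thus counted about as often as Pdgfra in ICM-like cells, whereas 3 or more counts were found in 47 of 97 ICM-like cells for Pdgfra and in 40 for Creb3l2. All shares come from 1 stage and depend on how well each gene's 3' end is captured, so the order is one of detection and not of time.

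**Figure D2:**
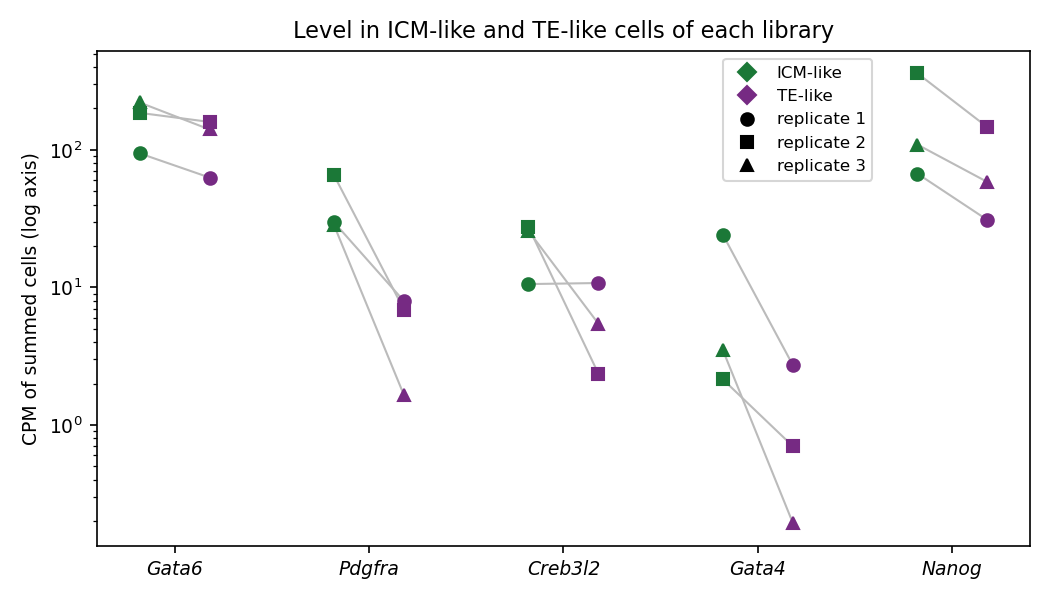
Level of Gata6, Pdgfra, Creb3l2, Gata4 and Nanog in the summed ICM-like cells (left, green) and TE-like cells (right, purple) of each library, in CPM on a log axis, with lines joining the classes of a library. All lines of Gata6, Pdgfra, Gata4 and Nanog slope down to TE-like cells, whereas the Creb3l2 line of replicate 1 is flat at 10.6 against 10.8 CPM.

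Summing the cells of each class within a library gave a test of the levels. Of 12534 genes with enough counts, 464 passed an adjusted p of 0.05 between ICM-like and TE-like cells (3.7%), 139 of them higher in ICM-like cells (1.11%). Among the 7 regulators 4 could be tested, and 1 of those, Pdgfra, passed. Sox17, Sox7 and Foxa2 had too few counts. The median log2 fold change of the 4 was 2.42, beside 0.0027 over all genes tested, and all 4 were positive, as were 50.2% of all genes.

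Pdgfra rose in ICM-like cells. It stood at 29.7, 65.3 and 28.3 CPM in the ICM-like cells of replicates 1, 2 and 3, against 7.94, 6.87 and 1.64 CPM in TE-like cells. All ICM-like libraries lay above all TE-like ones, as they did for 4.96% of the genes tested. The log2 fold change was 3.06 (SE 0.52) with an adjusted p of 0.0201 by edgeR's quasi-likelihood test, fitted with libraries as blocks. By the same edgeR test it no longer passed without replicate 2 (adjusted p = 0.105) or without replicate 3 (adjusted p = 0.128). The TE-like level came mostly from 1 cell per library, which held 71.1%, 93.5% and 72.5% of the counts, and without the cell of highest CPM in each class and library, a choice made after seeing the data, the log2 fold change was 5.29 and still passed.

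Gata6 stood at 94.3, 186 and 221 CPM in ICM-like cells, against 62.9, 160 and 141 CPM in TE-like cells. Each library was somewhat higher in its ICM-like cells, but the libraries overlapped between the classes. The log2 fold change was 0.45 (SE 0.19), which did not pass the test (adjusted p = 0.265, edgeR's quasi-likelihood test). Among cells with barcode numbers 1 to 32 it was -0.53 (adjusted p = 0.441), the opposite sign.

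Gata4 stood at 24.1, 2.14 and 3.49 CPM in ICM-like cells, against 2.72, 0.70 and 0.19 CPM in TE-like cells, a log2 fold change of 2.92 with an SE of 0.80 and an adjusted p of 0.0972 (edgeR's quasi-likelihood test). Replicate 1 was far above the others in ICM-like cells, and 1 cell gave 82.8% of its Gata4 counts there. That cell had barcode number 62, within the set that held all unnamed cells of replicate 1. The Gata4 level in ICM-like cells moved with the barcode set. Its mean over libraries was 2.17, 21.0 and 3.54 CPM in barcodes 1 to 32, 33 to 64 and 65 to 96. Without the cell of highest CPM in each class and library the log2 fold change was 1.75, again not called. With DESeq2 the change passed (adjusted p = 0.00395). Creb3l2 stood at 10.6, 27.5 and 25.7 CPM in ICM-like cells, against 10.8, 2.35 and 5.44 CPM in TE-like cells, a log2 fold change of 1.92 with an SE of 0.77 and an adjusted p of 0.254 (edgeR's quasi-likelihood test). Replicate 1 again showed no difference, and DESeq2 gave an adjusted p of 0.0322.

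Nanog rose in the same cells, with 67.2, 361 and 109 CPM in ICM-like cells, against 30.9, 146 and 58.4 CPM in TE-like cells. The log2 fold change was 1.08 with an SE of 0.20 and an adjusted p of 0.0286 (edgeR's quasi-likelihood test). Each library was higher in ICM-like cells, although the groups overlapped because replicate 2 was high in both. The call was lost when any 1 library was left out (adjusted p between 0.0608 and 0.181 by the same edgeR test).

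The partners of the regulators moved in both directions. Of 23 tested genes for the endoderm's basement membrane and endocytosis, 3 were higher in ICM-like cells: the collagen chains Col4a1, by 1.99, and Col4a2, by 1.99, and the collagen hydroxylase P4ha1, by 1.19 on the log2 scale. The endocytic receptor Lrp2 and its adaptor Dab2 were lower in ICM-like cells, at -3.12 and -3.29. Lrp2 stood at 24.8, 164 and 104 CPM in ICM-like cells, against 241, 1328 and 823 CPM in TE-like cells. The other 18 did not pass, and the list's median was 0.63. Of the 23 genes 18 were positive, beside 50.2% of all genes, and 13 had an unadjusted p below 0.05, beside 16.9% of all genes.

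Pdgfa, the ligand of the receptor Pdgfra, was lower in ICM-like cells, with 152, 36.5 and 118 CPM there, against 343, 99.2 and 239 CPM in TE-like cells (a log2 difference of -1.24 with an SE of 0.18 and, by edgeR's quasi-likelihood test, an adjusted p of 0.00943). Ligand and receptor thus had their higher levels in different classes. It was 1 of 4 tested genes of the PDGF family to pass. Of 25 tested genes of FGF and ERK signalling, the ERK phosphatase Dusp6 (-3.50) and the receptor Fgfr2 (-2.10) were lower in ICM-like cells and 23 did not pass. Of 12 other endoderm transcription factors, Klf5 alone passed (-0.97, lower in ICM-like cells). Over all genes 3.7% were called, so 1 of 12 or 2 of 25 is not far from the background.

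Of 17 tested epiblast and naive pluripotency genes 7 were higher in ICM-like cells, among them Tdgf1, Esrrb, Klf4 and Klf2, with log2 fold changes of 3.01, 2.29, 1.98 and 1.57, and some of these had served to cluster the cells. Of 8 other GATA, SOX and FOXA factors Gata2 and Gata3 passed (-5.30 and -3.70), both of them TE markers used in the clustering. None of 16 genes of the CREB3 and ATF6 family and of COPII vesicles passed, while 2 had an unadjusted p below 0.05, as did 16.9% of all genes tested. None of 4 later endoderm products passed either, with 1 below that unadjusted level.

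Sox17, Sox7 and Foxa2 can be described cell by cell. At full depth Sox17 was counted in 6 of 225 cells, 5 ICM-like and 1 TE-like, with 30 counts in all. The 5 ICM-like cells had 2, 9, 1, 10 and 2 counts, and all 5 also had Gata6, 4 had Pdgfra and 4 had Nanog. Their Pdgfra levels were 219, 0, 80.6, 110 and 97.2 CPM in the same order, and their Nanog levels 9.52, 35.4, 0, 1.84 and 68.9 CPM. Pdgfra was above the median of the ICM-like cells of their own library in 4 of the 5, and Nanog was below that median in 4 of the 5. Gata6 was also below its median in 4 of the 5, and 1 of these had a single count of it, at 2.95 CPM. Having a count of Gata6 did not set the 5 cells apart, as 92 of 97 ICM-like cells had one. All 6 cells had barcode numbers between 1 and 32, a set that held 79 of the 225 cells. Sox7 was counted in 1 ICM-like and 2 TE-like cells, with 4, 1 and 17 counts. Foxa2 had 1 count in 1 unnamed cell of 225.

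Gata6 and Nanog were found together in most ICM-like cells, a number that their high separate shares nearly fixed. Of 91 thinned ICM-like cells 67 held both, 13 Gata6 without Nanog, 10 Nanog without Gata6 and 1 neither. The number expected from the shares in each library was 67.8. Gata6 was in 80 and Nanog in 77 of the 91 cells, so the overlap had little room to differ from that number. In replicates 2 and 3 0 cells lacked both genes, which is the least overlap their shares allow. These counts therefore cannot decide whether the genes avoid each other. At full depth 53 of 97 ICM-like cells had at least 10 counts of each gene, 17 of Gata6 alone and 10 of Nanog alone. Spearman's rho between them across ICM-like cells was 0.06, 0.0048 and 0.02 in replicates 1, 2 and 3 (n = 38, 26 and 33 cells, which share a library and whose Nanog level ran with the cell's total, mean rho 0.38).

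**Figure D3:**
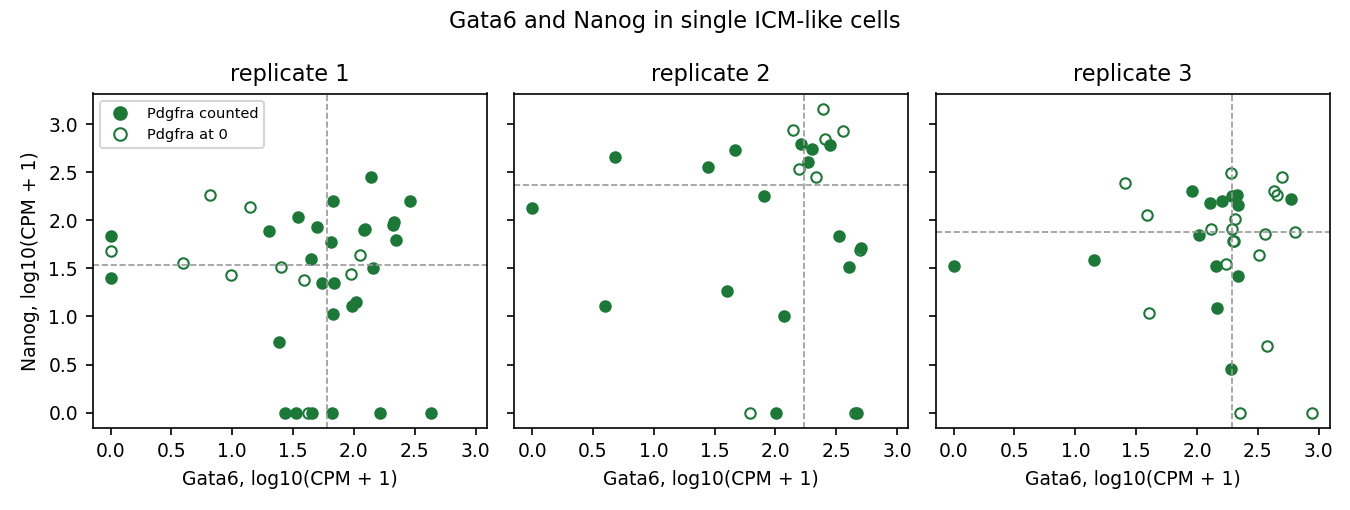
Gata6 (x axis) and Nanog (y axis) in single ICM-like cells of each library, both as log10(CPM + 1), with dashed lines at the medians. Filled points have a count of Pdgfra and open points have none. Cells fill all 4 quadrants in each library, and Pdgfra cells lie on both sides of both medians.

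Most pairs among the regulators were close to what their shares gave. For pairs with Gata6 there was little room to differ in replicates 2 and 3, where it was in 23 of 25 and 32 of 33 thinned cells. In both of these libraries 0 cells lacked both Gata6 and Pdgfra, the least overlap their shares allow. Of 44 thinned ICM-like cells with Pdgfra, 38 also had Gata6 (86.4%), against 37.8 expected, whereas 47.5% of the 80 Gata6 cells had Pdgfra. Pdgfra met Nanog in 38 cells, against 37.1 expected, and Creb3l2 in 16, against 13.2 expected. Creb3l2 met Gata6 in 27 cells, against 26.4 expected, and Nanog in 26, against 24.7 expected. Gata4 met Creb3l2 in 0 cells, against 2.10 expected, Pdgfra in 3, against 4.22, and Nanog in 5, against 6.67. Of the 4 thinned Sox17 cells 3 had Pdgfra, against 2.15 expected, 2 had Gata6, against 3.24 expected, and 1 had Nanog, against 3.30 expected. With so few cells these last counts carry wide counting error.

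The relation between Gata6 and Pdgfra changed sign between libraries. Across ICM-like cells rho was 0.41 in replicate 1, -0.33 in replicate 2 and -0.33 in replicate 3. For Pdgfra and Creb3l2 it was -0.0013, 0.43 and 0.16. For Pdgfra and Nanog it was -0.27, -0.26 and 0.05. Within a library the cells share their source, and sparse counts weaken any such value.

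The same question was put to sums. ICM-like cells of each library were split at the library's median CPM of Nanog, Gata6 or Pdgfra, and the upper cells compared with the lower. For Pdgfra in replicate 3 the median was 0 CPM, so there 14 cells with a count were set against 19 without, and in replicates 1 and 2 the lower cells held 10 of 19 and 9 of 13 without a count. The gene that set a split stayed among the genes adjusted over, but its own difference is fixed by the split and is not read. Between 3 and 16 cells of a library lay within 1.5-fold of a Nanog or Gata6 median. In none of the splits did any gene pass. Of 11219, 11031 and 11038 genes tested, 502, 530 and 544 had an unadjusted p below 0.05 for Nanog, Gata6 and Pdgfra (4.47%, 4.8% and 4.93%), and DESeq2 called 50, 70 and 51. The share called was 0% in each split by edgeR's quasi-likelihood test, and none of the regulators was among them.

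Between Nanog-high and Nanog-low cells Gata6 stood at 121, 165 and 231 CPM against 55.0, 218 and 203 CPM, a log2 fold change of 0.34 (SE 0.33). Replicate 2 went the other way from replicates 1 and 3. Pdgfra differed by -0.09 (SE 0.40) and Creb3l2 by -0.31 (SE 0.51). Gata4 stood at 4.27, 1.11 and 0.90 CPM in Nanog-high cells against 53.0, 3.79 and 8.05 CPM in Nanog-low cells. It was lower in the Nanog-high cells of every library, with a log2 fold change of -2.86 (SE 0.81), and did not pass (adjusted p = 0.958, edgeR's quasi-likelihood test). Single cells carried much of this: 1 Nanog-low cell per library held 92.5%, 94.1% and 48.5% of the Gata4 counts there. That of replicate 1 had barcode number 62, in the set of that library's unnamed cells. Without the cell with most Gata4 counts on each side, a choice made after seeing the data, the levels were 1.65, 0.67 and 0.23 CPM in Nanog-high cells, against 4.63, 0.29 and 4.54 CPM in Nanog-low cells, and replicate 2 turned round. The log2 fold change was -1.15 with cells of at least 4000 genes, -1.35 with the split made on thinned counts and -1.30 with the middle cells left out. Nanog-high cells were the deeper ones, with median totals of 338669, 443533 and 807531 counts against 186154, 277773 and 492886, and the part of depth was not tested.

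Between Gata6-high and Gata6-low cells Pdgfra stood at 38.5, 31.8 and 12.9 CPM against 19.3, 101 and 39.2 CPM, and was higher in replicate 1 and lower in replicates 2 and 3. Its log2 fold change was -0.77 (SE 0.61). Creb3l2 followed the same pattern over the libraries at -0.73 (SE 0.72). Gata4 differed by 0.94 (SE 1.52), with replicate 1 opposite to the others. It stood at 4.98, 3.67 and 6.54 CPM against 47.0, 0.53 and 1.35 CPM. In replicate 1 the cell of barcode number 62 held 93.2% of the Gata4 counts of Gata6-low cells, and without it their level was 3.63 CPM. Nanog differed by 0.40 (SE 0.22). Nanog was a little higher in the Gata6-high cells of every library.

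Between Pdgfra-high and Pdgfra-low cells Creb3l2 stood at 16.4, 49.8 and 29.2 CPM against 5.66, 9.58 and 22.9 CPM. It was higher in the Pdgfra-high cells of every library, with a log2 fold change of 1.40 (SE 0.60), and did not pass (adjusted p = 0.951, edgeR's quasi-likelihood test). Gata4 differed by -2.25 (SE 0.81), lower in every library. In replicate 1 the Pdgfra-low level of 40.5 CPM was 4.09 CPM without 1 cell, of barcode number 62, that held 90.9% of the counts. The log2 fold change was -0.80 with cells of at least 4000 genes and -1.47 at a Leiden resolution of 1.0. Gata6 stood at 147, 124 and 186 CPM against 50.0, 235 and 249 CPM, again with replicate 1 opposite to the others, and differed by 0.03 (SE 0.45). Nanog differed by -0.15 (SE 0.20).

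**Figure D4:**
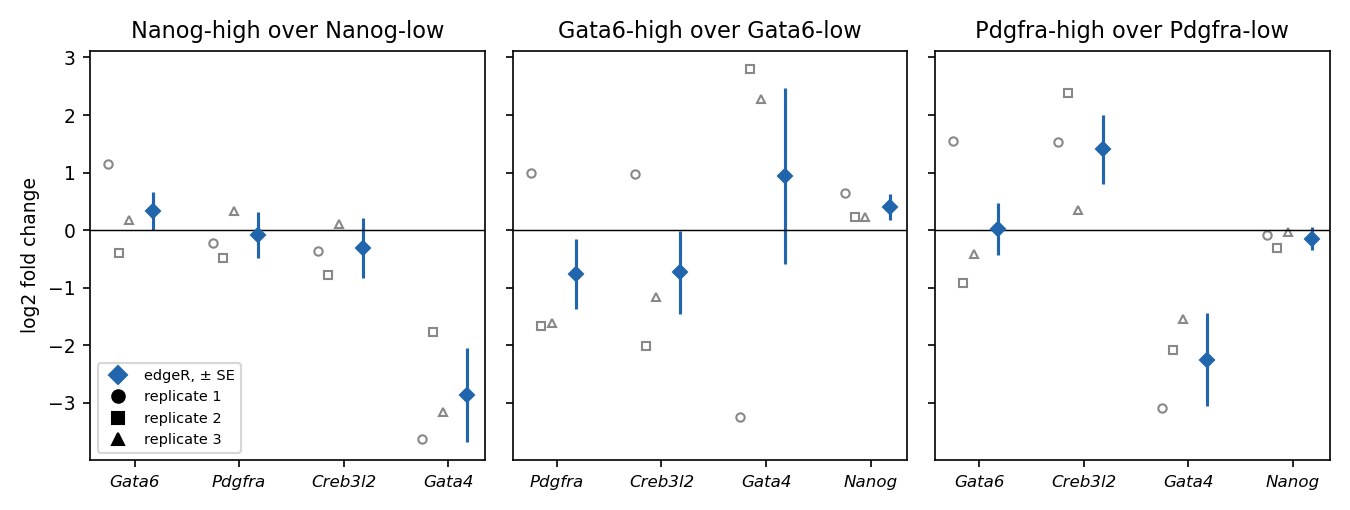
Log2 fold change of the regulators and Nanog between ICM-like cells above and below the library median of Nanog (left), Gata6 (middle) or Pdgfra (right, where replicate 3 sets cells with a count against cells without). Blue diamonds are edgeR estimates with their SE, and grey points are the ratios of summed CPM in each library. Gata6 lies near 0 in the Nanog split (0.34) and in the Pdgfra split (0.03), and replicate 1 stands opposite to the others in several columns.

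The genes for basement membrane and endocytosis moved in both directions in the Pdgfra split, and none passed the test. Of 23 tested genes 13 were positive, as were 49.7% of all genes, their median log2 fold change was 0.17 beside -0.0026 over all genes, and 7 had an unadjusted p below 0.05, beside 4.93% of all genes. Of those 7, the collagen chaperone Serpinh1 (1.95), the matrix protein Sparc (1.75), Col4a2 (1.58), the laminin chain Lamb1 (0.83) and the water channel Aqp8 (2.61) were higher in the Pdgfra-high cells of all 3 libraries. Lrp2 (-1.13) and Dab2 (-1.84) were lower in all 3. Sparc stood at 99.4, 48.9 and 192 CPM in Pdgfra-high cells, against 64.96, 21.5 and 15.9 CPM in Pdgfra-low cells. The 16 tested TE markers had a median of -0.56 in the same split, with 3 positive, and their part in the result was not tested.

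In the Gata6 split 10 of the same 23 genes were positive, beside 48.7% of all genes, with a median of -0.08. Sparc differed by -1.64, lower in all 3 libraries, and Lrp2 by 1.37, higher in all 3, each opposite to its sign in the Pdgfra split. In the Nanog split 7 of 23 were positive, beside 52% of all genes, with a median of -0.43. Across ICM-like cells the mean of the list had a rho of 0.40, 0.26 and 0.50 with Pdgfra in replicates 1, 2 and 3 (n = 38, 26 and 33 cells), while with Gata6 it was 0.08, -0.35 and -0.34.

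Among 8162 genes counted in at least 25% of ICM-like cells of every library, those whose levels ran most like a regulator were ranked by the mean rho over 3 libraries. Sparc came first for Pdgfra (0.49), followed by Snx2 (0.43) and Fbxo3 (0.41). Map7 came first for Gata6 (0.59), followed by Atg9a (0.49) and Larp1b (0.49). Flcn came first for Creb3l2 (0.42), followed by Pbx4 and Frrs1l (both 0.37), and Wdpcp for Gata4 (0.43), followed by Wdr72 and Usp9x (both 0.43). For Nanog 1110004F10Rik came first (0.54). Gata6, Pdgfra, Creb3l2 and Gata4 were ranked in this way, and none was among the 3 leading genes of another, while Sox17, Sox7 and Foxa2 were in too few cells to be ranked.

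In replicate 1 Gata4 was most abundant outside the named classes. In the 17 unnamed cells of replicate 1 it was counted in 15 cells, and 8 had at least 10 counts, as did 6 of the 198 ICM-like and TE-like cells of all libraries. These 17 cells held 73.5% of all Gata4 counts, at 117 CPM of their sum, against 14.2 CPM in the named cells of replicate 1. They were low in Gata6, at 16.0 against 79.8 CPM. Nanog stood at 177 against 50.4 CPM, but 1 cell held 75.5% of its counts in the 17 cells, and without that cell the sum was at 48.4 CPM, no higher than in the named cells. They were also low in Krt8 (38.0 against 828 CPM) and Actb (204 against 2530 CPM) and high in Usp44 (1761 against 70.3 CPM) and the oocyte gene Zp3 (478 against 32.9 CPM, and 262 CPM without the cell with most counts). None of them had a count of Sox17 or Sox7. The 4 unnamed cells of replicate 2 had 5 counts of Gata4, all in 1 cell, and the 6 of replicate 3 had 0.

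**Figure D5:**
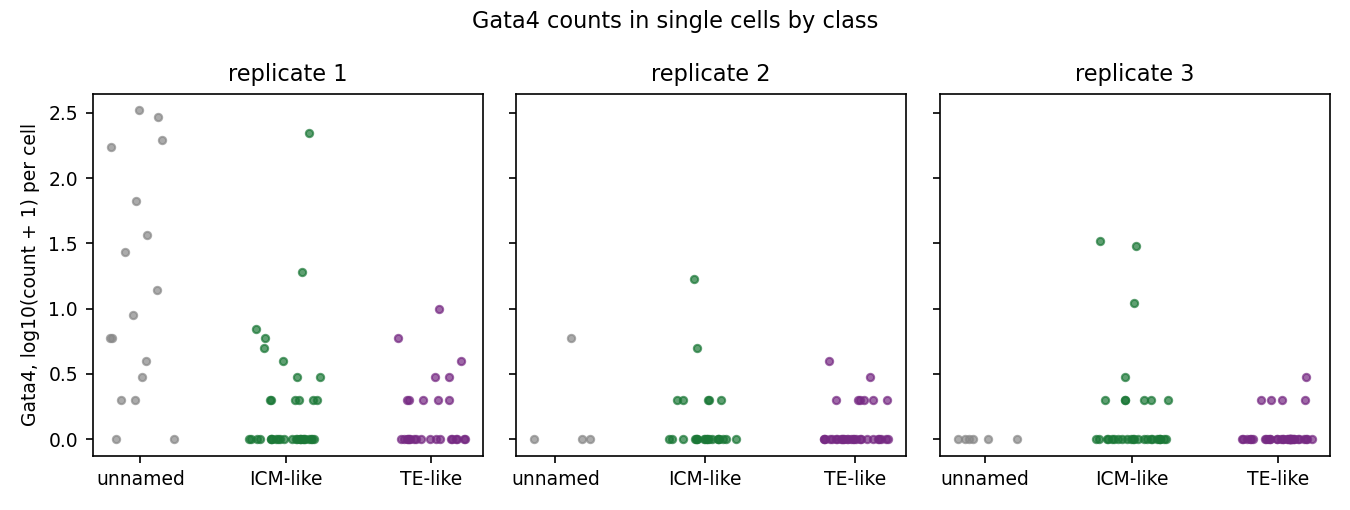
Gata4 in single cells as log10(count + 1), for unnamed, ICM-like and TE-like cells of each library. Unnamed cells of replicate 1 reach 332 counts, and 8 of 17 have at least 10, while most ICM-like and TE-like cells are at 0 or 1 count.

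By barcode number the share of ICM-like cells with a count at full depth was 22 of 29, 16 of 28 and 21 of 40 for Pdgfra in barcodes 1 to 32, 33 to 64 and 65 to 96, and 26 of 29, 26 of 28 and 40 of 40 for Gata6. The mean Pdgfra level over the libraries was 65.9, 39.5 and 23.8 CPM in these sets, and that of Gata6 was 87.5, 132 and 236 CPM. In TE-like cells Pdgfra stood at 9.95, 0.23 and 0.49 CPM in the same sets. Pdgfra was higher in ICM-like than in TE-like cells in each set, whereas within ICM-like cells Pdgfra and Gata6 ran in opposite orders over the sets. Gata4 was counted in 9 of 29, 13 of 28 and 9 of 40 ICM-like cells of these sets.

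By the reference annotation for this build Gata6 lies on chromosome 18, Gata4 and Sox7 on chromosome 14, Sox17 on chromosome 1, Foxa2 on chromosome 2, Pdgfra at chr5:75152292-75198215 on the plus strand and Creb3l2 at chr6:37327255-37442146 on the minus strand. Exons of Gata6, Pdgfra and Sox17 overlap a gene on the opposite strand, 1010001N08Rik for Gata6, which had 0 counts. Whether counting used the strand is not given, so reads from such partners cannot be told apart from those of the regulators.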

How the data were processed

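The authors deposited whole-number counts per gene and barcode, not normalized, for 3 single-cell libraries of 96 barcodes. Per the labels' protocols, cDNA was made by a modified Smart-seq2 with an 8 nt cell barcode and an 8 nt molecular identifier and sequenced as 150 bp pairs from the 3' end. CASAVA 1.8, HISAT2, HTSeq and the build mm10 come from the submitters' processing notes. The gene models, strandedness and handling of identifiers were not stated there, so the counts may be of molecules or of reads.

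Barcodes with at least 2000 genes were kept (99.7% to 99.8% of each library's counts). Cells were clustered in scanpy 1.11.5 on 33 TE and ICM markers (10 components, 15 neighbours, Leiden resolution 0.5). Hand-picked cells were not screened by a doublet caller, and 1 alternative dropped cells above 2.5 times the median total of their class. Shares used cells thinned to 50000 counts and exact 95% intervals.

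Counts were summed per class and library and tested with edgeR 4.0.16 (filterByExpr, TMM, quasi-likelihood test, Benjamini-Hochberg over all genes, threshold 0.05). The library was a block, because every library holds cells of both classes, and this pairs the sums. The steps were tested on simulated data. Correlations used log2 CPM with a pseudocount of 1. The regulators, lists and tests were chosen with earlier results of these data known. Named are all 7 regulators and Nanog, up to 4 called genes with the largest change per list, and the 3 genes most like each regulator detected widely enough to be ranked (Gata6, Pdgfra, Creb3l2 and Gata4), with the first for Nanog. P4ha1, Lrp2 and the genes given for the Pdgfra and Gata6 splits were named after their values were seen, as were the genes describing the unnamed cells. Alternatives were DESeq2 1.42.0, no filter, no block, each library left out, other depths, cell minimums, resolutions, barcode sets and splits.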

Additional observations from a re-analysis of the deposited data

Results flagged for a closer look

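Gata4 showed a signal in cells that no comparison used: 8 of the 17 unnamed cells of replicate 1 had at least 10 counts, against 6 of 198 named cells. Creb3l2 reached 4933 counts in 1 unnamed cell of replicate 1, or 4233 CPM, and the same cell had the only count of Foxa2. That library's 17 unnamed cells held 78.9% of all Creb3l2 counts, but 99.0% of theirs were in this 1 cell. Without it their sum was at 5.73 CPM, no higher than the 10.7 CPM of the named cells of replicate 1. Counts of the regulators also appeared in the 63 barcodes left out for few genes, with 74 of Gata6, 8 of Pdgfra, 4 of Gata4 and 6 of Creb3l2, against 16148, 2104, 1580 and 6314 in the cells. With 3 libraries a group, no library could be tested as standing apart.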

How the results depend on the processing

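The number of genes called between ICM-like and TE-like cells was 464, 116 to 293 with 1 library left out (293 without replicate 1, 232 without replicate 2, 116 without replicate 3), 1366 with DESeq2, 64 in barcodes 65 to 96 alone and 0 without the replicate block (753 at an unadjusted p below 0.05). Without the block Pdgfra was at 2.83 and Nanog at 1.17 on the log2 scale, neither called, Gata4 in the Gata6 split at -1.81 and Gata6 in the Pdgfra split at -0.21. Pdgfra ranged from 2.54 to 3.69 and Nanog from 0.97 to 1.17 with 1 library left out. In barcodes 65 to 96 Pdgfra was at 6.15 and Nanog at 0.74, and in barcodes 1 to 32 Nanog was at 1.82 and Gata6 at -0.53, none of them called. The fits for barcodes 33 to 64 and 65 to 96 rested on 2 libraries with at least 5 cells of each class, that for barcodes 1 to 32 on 3. DESeq2 called Gata4 (2.95) and Creb3l2 (1.94). Genes called in the Nanog, Gata6 and Pdgfra splits were 0 to 4, 0 to 2 and 0 to 3 with 1 library left out, 50, 70 and 51 with DESeq2, and 8, 10 and 7 with no filter. The Gata6 split gave 2 with at least 4000 genes per cell and 4 at Leiden resolution 1.0, and the Pdgfra split 1 without very deep cells. With 1 library left out, Gata6 in the Nanog split ranged from -0.086 to 0.65, Pdgfra there from -0.27 to 0.048, Gata4 in the Gata6 split from -0.58 to 2.58 and Gata6 in the Pdgfra split from -0.70 to 0.52. Pdgfra in the Nanog split turned positive at 0.043 (4000 genes), 0.30 (resolution 1.0) and 0.58 (thinned split). Gata4 in the Gata6 split turned to -0.86 without very deep cells. Gata6 in the Pdgfra split turned to -0.10 (4000 genes), -0.11 (without deep cells), -0.19 (upper against lower cells without the middle ones) and -0.052 (thinned split), and Nanog there to 0.062 (resolution 1.0) and 0.087 (thinned split). At 3 or more counts after thinning the ICM-like shares were 74.5% for Gata6 and 29.5% for Pdgfra, against 87.2% and 49.0% at 3 or more counts without thinning. In barcodes 1 to 32 the Pdgfra share was 63.0%. The causes were not tested. Leaving out the highest cell of each class and library, chosen after seeing the data, gave log2 fold changes of 5.29 for Pdgfra, 1.75 for Gata4, 2.18 for Creb3l2, 0.49 for Gata6 and 1.10 for Nanog, with the same calls. Without the unnamed cells of replicate 1, also chosen after seeing the data, the share of all cells with Gata4 was 26.9%, against 30.4%.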
